A study of Mus musculus with 4 samples.

Results

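The nuclear genes of the mitochondrial respiratory chain and ATP synthase were examined across mouse pluripotent cells and bone marrow. Members were the genes whose RefSeq symbol starts with Nduf, Uqcr, Cox4, Cox5, Cox6, Cox7, Cox8 or Atp5, together with Sdha to Sdhd. The array carried 87 such genes on 108 probes, out of 33378 genes or transcripts on 41160 probes. By enzyme complex they were 40 genes of complex I, 4 of complex II, 8 of complex III, 18 of complex IV and 17 of complex V.

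The 4 arrays form 3 groups. E14 mouse embryonic stem (ES) cells came from strain 129 and were measured on 1 array. Induced pluripotent stem (iPS) lines 7 and 13 were made from bone marrow mononuclear cells (BMMNCs) of C57BL/6 mice that carry an Oct4-EGFP transgene, and each line had 1 array. BMMNCs, a mixture of blood-forming and immune cells, came from C57BL/6 mice and had 1 array, with no transgene named for them. ES and iPS cells were grown on irradiated mouse embryonic fibroblasts in serum medium with leukemia inhibitory factor, and the feeders were reduced by preplating on gelatin before RNA was taken. The labels give no culture for the BMMNCs. ES and iPS cells thus differ in strain and transgene as well as in origin, and these cannot be told apart. The labels do not say whether the lines came from separate animals, so the p-values below measure the spread between these 2 lines.

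The respiratory chain passes electrons from NADH (complex I) or succinate (complex II) through ubiquinone to complex III, on to cytochrome c and then to oxygen at complex IV. Complexes I, III and IV pump protons, and ATP synthase (complex V) uses the proton gradient to make ATP. Most subunits are encoded in the nucleus and a few core ones in mitochondrial DNA. Pluripotent cells are known to draw much of their ATP from glycolysis, whereas the cells of bone marrow vary widely in how they make it.

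Levels are the log2 processed signal minus the 75th percentile of the array, so 0 is the 75th percentile and 1 unit is a doubling of signal. Levels of different probes are not comparable with each other, because probes bind with different strength. On the 4 arrays, between 54.6% and 59.0% of probes were well above background, and the 75th percentile of the signal lay between 602 and 1123. Of the 87 members, 83 were well above background on all 4 arrays. Cox4i2 and Cox8b were not well above background on any array and were left untested, which leaves 85 members in the tests. Cox7b2 was measured in ES cells and both lines but not in BMMNCs, and Cox8c was measured in ES cells and line 7 alone.

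Marker lists were summed to check the labels. The 7 pluripotency markers were all well above background in ES and iPS cells, with a summed signal of 431 to 546 times the 75th percentile, against 0.26 in BMMNCs. One of the 7, Zfp42 on chromosome 8, lay at 7.12 in ES cells and at 3.31 and 3.55 in the lines, a difference of -3.70 (adjusted p = 0.0425), and no other passed against ES cells. In BMMNCs the granulocyte markers summed to 1493 times the 75th percentile, the erythroid markers to 1499, the leukocyte markers to 291 and the B cell markers to 98.9. None of these 4 lists exceeded 1.74 in ES or iPS cells. Of the 6 granulocyte markers, 1 was well above background in ES cells and 0 in the lines, and of the 6 erythroid markers 2 or 3 were, all at low signal. On each of these 3 arrays 5 of 6 leukocyte and 3 of 4 B cell markers were. All 8 fibroblast markers were well above background in ES cells and both lines, with sums of 359 to 423 against 15.1 and 4 of 8 markers in BMMNCs. Every contrast with BMMNCs below therefore moves with these marker levels, and the part of feeder cells or of any one blood lineage in it was not tested. In such bulk RNA, fewer cells of a type and less RNA per cell cannot be told apart.

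Promoter sequences of 7 members are shown first. They are isoforms of complex IV subunits (Cox7a1 with Cox7a2, Cox6a1, Cox7b2) and ATP synthase genes that moved in opposite directions (Atp5g1 with Atp5e and Atp5l). Only Cox7a1 and Cox7a2 are shown as a pair: no sequence was found for Cox6a2, the counterpart of Cox6a1, and that of Cox7b is not shown. Each run is the 250 bases before the annotated gene start, 5′ to 3′ on the strand of the gene, from RefSeq on GRCm38.p6. Capitals mark matches, on either strand, to 5 motifs. The NRF1 motif was searched as GCATGCGC and the motif of the ETS family, which includes GABPA, as CCGGAAG. The letters of the GC box were GGGCGG, and those of the other motifs were their own names, CCAAT and, for the TATA box, TATAAA. NRF1 and GABPA are transcription factors known for binding upstream of many respiratory chain genes.
Cox7a1, chr7:30183921-30184170, plus strand: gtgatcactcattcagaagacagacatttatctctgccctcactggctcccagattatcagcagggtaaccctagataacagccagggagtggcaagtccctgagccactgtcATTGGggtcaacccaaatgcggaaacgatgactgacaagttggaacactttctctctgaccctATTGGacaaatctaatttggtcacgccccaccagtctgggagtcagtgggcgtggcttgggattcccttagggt
Cox7a2, chr9:79759854-79760103, minus strand: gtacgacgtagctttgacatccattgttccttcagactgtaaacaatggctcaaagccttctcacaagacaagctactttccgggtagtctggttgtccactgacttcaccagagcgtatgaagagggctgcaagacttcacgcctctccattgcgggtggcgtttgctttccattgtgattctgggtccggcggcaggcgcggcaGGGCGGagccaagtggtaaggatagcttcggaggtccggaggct
Cox6a1, chr5:115348959-115349208, minus strand: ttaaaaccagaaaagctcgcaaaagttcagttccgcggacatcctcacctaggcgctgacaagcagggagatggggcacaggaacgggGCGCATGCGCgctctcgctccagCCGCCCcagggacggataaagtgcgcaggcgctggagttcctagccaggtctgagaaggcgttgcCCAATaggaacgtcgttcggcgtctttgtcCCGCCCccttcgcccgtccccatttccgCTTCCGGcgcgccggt
Cox7b2, chr5:71548206-71548455, minus strand: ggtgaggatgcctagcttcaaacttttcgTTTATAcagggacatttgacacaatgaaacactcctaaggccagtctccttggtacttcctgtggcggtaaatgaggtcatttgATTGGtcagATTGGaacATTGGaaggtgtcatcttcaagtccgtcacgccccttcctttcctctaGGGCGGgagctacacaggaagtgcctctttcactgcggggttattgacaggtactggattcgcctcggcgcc
Atp5g1, chr11:96075632-96075881, minus strand: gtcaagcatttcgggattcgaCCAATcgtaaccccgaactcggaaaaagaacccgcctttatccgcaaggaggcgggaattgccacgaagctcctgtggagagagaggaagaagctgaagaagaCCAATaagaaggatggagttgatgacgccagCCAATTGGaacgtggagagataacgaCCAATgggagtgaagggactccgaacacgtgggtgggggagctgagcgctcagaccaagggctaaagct
Atp5e, chr2:174464102-174464351, minus strand: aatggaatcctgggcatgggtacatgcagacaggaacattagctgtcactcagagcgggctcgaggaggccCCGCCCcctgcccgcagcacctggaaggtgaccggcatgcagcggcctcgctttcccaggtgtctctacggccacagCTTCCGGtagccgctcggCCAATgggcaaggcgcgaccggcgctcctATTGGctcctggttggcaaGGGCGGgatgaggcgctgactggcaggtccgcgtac
Atp5l, chr9:44920743-44920992, minus strand: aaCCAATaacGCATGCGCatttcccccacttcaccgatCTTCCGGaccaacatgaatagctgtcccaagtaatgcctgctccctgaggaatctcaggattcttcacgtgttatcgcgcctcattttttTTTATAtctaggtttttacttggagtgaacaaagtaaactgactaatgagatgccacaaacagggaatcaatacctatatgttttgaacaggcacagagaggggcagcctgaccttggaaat

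The muscle-type Cox7a1 window held 2 CCAAT matches and no other of the 5 motifs, and the window of its common counterpart Cox7a2 held a single GC box. The Cox6a1 window held 6 matches, including 2 overlapping NRF1 matches on opposite strands and an ETS match at position -16, counting back from the gene start. Atp5g1 held 5 CCAAT matches, of which the third and the fourth overlap on opposite strands, and no NRF1 or ETS match. Atp5e had an ETS match at position -102. Atp5l had an NRF1 match at position -240 and an ETS match at position -212 among its 4 matches.

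Windows were found for 72 of the 87 members, 77 windows in all, and were set beside all 32851 windows of the same length. The NRF1 letters were in 10.4% of member windows and in 2.26% of all windows. The ETS letters were in 16.9% and 6.91%. For the other motifs the shares lay closer, at 36.4% and 32.7% for the GC box, 42.9% and 33.8% for CCAAT, and 10.4% and 12.4% for TATAAA. These matches are a description of the letters, and motifs were picked after the expression values were known.

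The comparison of the iPS lines with BMMNCs asks how the respiratory chain genes differ between reprogrammed cells and the kind of cells they were made from. No transgene and no culture are named for the BMMNCs, so transgene, culture and cell type cannot be told apart in it. More members were lower than higher in the iPS lines: by limma with Benjamini-Hochberg adjustment over 21216 genes, 34 of 85 fell (40.0%), 13 rose (15.3%) and 38 did not pass the threshold. Over all genes tested, 37.8% fell and 38.0% rose, 75.8% in all, so the share of members that fell was near the background and the share that rose was under it. The median difference of the members was -0.23, with quartiles at -0.59 and 0.20, and that of all genes was -0.01. Among the 83 members measured on all arrays 34 fell and 11 rose, where 38.3% and 35.3% of 14859 such genes did. Among these 83, 10 passed the threshold at a difference of at least 2-fold lower and 1 at least 2-fold higher, where 23.2% and 20.6% of such genes did. The other 2 that rose, Cox7b2 and Cox8c, were not well above background in BMMNCs, so their differences have only a bound or none.

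The 10 members at least 2-fold lower were Cox6a2, Ndufb7, Ndufb10, Ndufb3, Uqcrh, Ndufa1, Ndufb11, Atp5e, Atp5l and Ndufa2, and the one higher was Cox7a1. All 10 were also called lower under each of the 9 other tested settings, where Ndufa3 was the only further one of the 34 to be so. Of the 13 that rose, only Cox7a1 and Atp5g1 were called higher under every such setting. The split of 13 higher and 34 lower depended on the scaling: it was 23 and 30 with quantile normalization, 21 and 27 with the authors' deposited table, and 8 and 42 with scaling to the median. Of all genes, 77.8%, 75.8% and 76.7% were called in those settings in either direction. The members' median was -0.01, -0.10 and -0.44 there, beside 0.01, 0.12 and -0.22 for all genes. With normexp background correction it was -0.11 beside -0.20, and without the filter on dim probes -0.23 beside -0.31. The members thus lay above all genes in these last settings and under them in the others named.

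**Figure D1:**
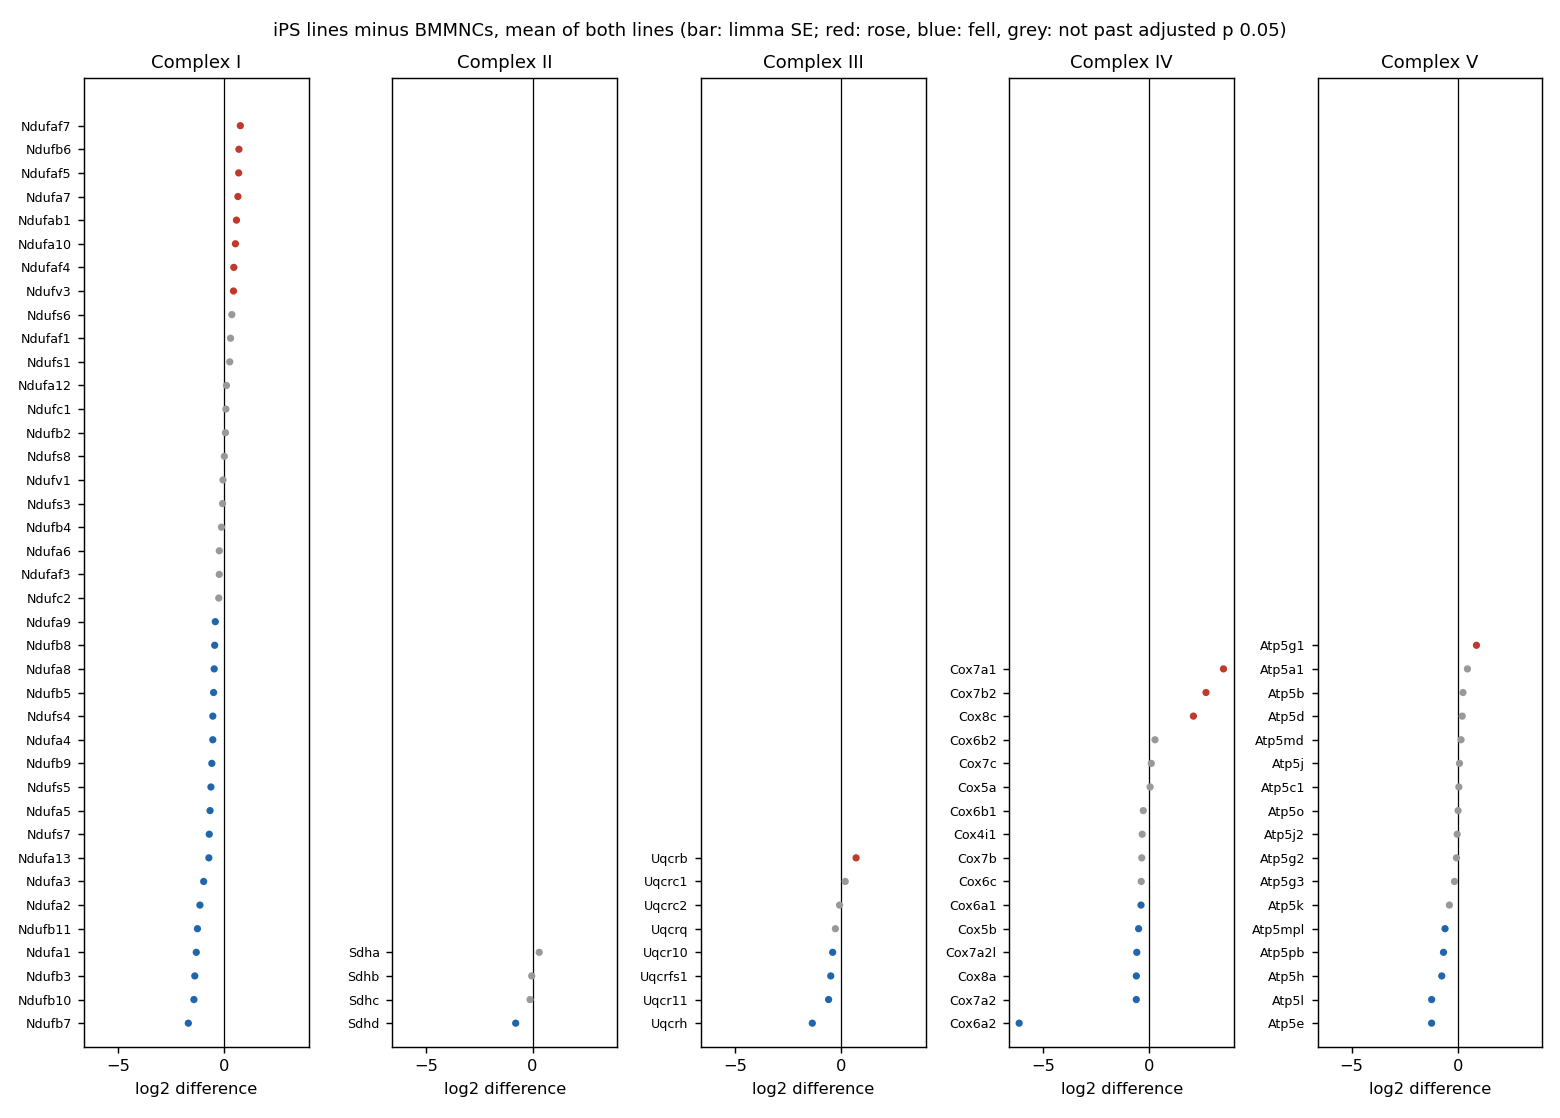
Log2 difference of the mean of iPS lines 7 and 13 from BMMNCs for the tested genes, by enzyme complex, with 1 gene not drawn; points are estimates, bars are limma standard errors, red marks genes that rose, blue genes that fell and grey genes that did not pass adjusted p 0.05. Most genes lie within 1 log2 unit of 0, and Cox6a2 at -6.13 and Cox7a1 at 3.50 lie at the ends.

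Complex I, the NADH dehydrogenase that feeds electrons into the chain, had 18 members lower, 8 higher and 14 not past the threshold, with a median of -0.23. As shares, 45.0% fell and 20.0% rose, where 37.8% and 38.0% of all genes did. The counts of each complex and role below are to be read beside these shares of all genes. The roles within complex I did not share one pattern. The core gene Ndufv2 was not matched to a probe. Of the 6 core subunits that were matched, which carry flavin or iron-sulfur clusters or adjoin them, 1 fell and none rose. That one, Ndufs7, lay at 3.59 in ES cells, 3.43 and 3.55 in the lines and 4.19 in BMMNCs, a difference of -0.70 (SE 0.11, adjusted p = 0.0158). None of the other core genes passed, and their differences ran from -0.08 for Ndufs3 to 0.26 for Ndufs1.

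Among the 29 accessory subunits, which surround the core and stabilise it, 17 fell and 5 rose, with a median of -0.47. Ndufb7, a subunit of the membrane arm, had levels of 4.87 in ES cells, 4.27 (line 7) and 4.39 (line 13) in iPS cells and 6.02 in BMMNCs. The iPS lines and ES cells all lay under BMMNCs, and the iPS difference was -1.69 (SE 0.11, adjusted p = 0.00282). Ndufb10, also of the membrane arm, lay at 5.30 in ES cells, 5.14 and 5.21 in the lines and 6.60 in BMMNCs, a difference of -1.43 (SE 0.10, adjusted p = 0.00308). Ndufb3, a further membrane-arm subunit, lay at 3.38 in ES cells, 3.25 and 3.38 in the lines and 4.70 in BMMNCs, a difference of -1.38 (SE 0.11, adjusted p = 0.00397). For these 3 genes the BMMNC level was the highest of the 4, and the ES level lay nearer to the lines than to BMMNCs.

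Another 4 accessory genes followed with differences near 1 log2 unit. Ndufa1 fell by 1.31, Ndufb11 by 1.26, Ndufa2 by 1.14 and Ndufa3 by 0.97. Ndufa1 and Ndufb11 are both on chromosome X. The remaining accessory genes that fell did so by 0.42 (Ndufa9) to 0.72 (Ndufa13).

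Against these, 5 accessory genes and 3 assembly factors rose. Ndufb6, a membrane-arm subunit, lay at 4.24 in ES cells, 4.18 and 4.29 in the lines and 3.54 in BMMNCs, a difference of 0.70 (SE 0.11, adjusted p = 0.0152). Ndufa7 was higher by 0.65, Ndufab1, the mitochondrial acyl carrier protein, by 0.58, Ndufa10 by 0.53 and Ndufv3 by 0.44. The second probe of Ndufab1 gave -0.12, so that direction rests on 1 probe. Of the 5 assembly factors, which build the complex but are not part of it, Ndufaf7 (0.76, SE 0.11, adjusted p = 0.012), Ndufaf5 (0.68) and Ndufaf4 (0.46) rose and none fell. Ndufaf1 and Ndufaf3 had differences of 0.30 and -0.23. Ndufaf7, an arginine methyltransferase, lay at -0.16 in ES cells, -0.03 and 0.07 in the lines and -0.74 in BMMNCs.

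Ndufa4, which takes its name from complex I and is now placed with complex IV, lay at 4.66 in ES cells, 4.56 and 4.67 in the lines and 5.15 in BMMNCs. It fell by 0.54 (SE 0.11, adjusted p = 0.0279). It is counted here with complex I, by its symbol.

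Under the other scalings the accessory subunits had medians between -0.69 and -0.34 and the assembly factors between 0.24 and 0.58, so neither changed sign. The median of the core subunits did, running from -0.25 to 0.09, as did those of complex II (-0.29 to 0.05) and of the c subunit genes of complex V (-0.27 to 0.19). The median of the complex IV tissue isoforms, 2.08, is the fitted value of Cox8c. That gene was not well above background in BMMNCs, so this median gives no size. It was -0.06 with normexp background correction and between 1.87 and 2.29 under the other scalings.

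Complex II, succinate dehydrogenase, is shared with the tricarboxylic acid (TCA) cycle and had 1 of 4 genes past the threshold. Sdhd, which anchors the enzyme in the inner membrane, lay at 4.06 in ES cells, 3.97 and 4.11 in the lines and 4.83 in BMMNCs, a difference of -0.79 (SE 0.12, adjusted p = 0.0137). The other membrane anchor, Sdhc, differed by -0.12 and the iron-sulfur subunit Sdhb by -0.04. Sdha, the flavoprotein, differed by 0.32 (adjusted p = 0.0588) on its brighter probe and by -0.19 on the other, so its direction is not settled.

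In complex III, which hands electrons to cytochrome c, 4 of 8 genes fell, 1 rose, and the median was -0.32. Uqcrh, the hinge protein beside cytochrome c1, lay at 6.01 in ES cells, 6.04 and 6.14 in the lines and 7.44 in BMMNCs. ES cells and both lines lay close together and well under BMMNCs, with an iPS difference of -1.35 (SE 0.11, adjusted p = 0.00378). Uqcr11 fell by 0.58, the Rieske iron-sulfur protein gene Uqcrfs1 by 0.48 and Uqcr10 by 0.39. Uqcrb, which takes part in ubiquinone binding, went the other way, at 3.54 in ES cells, 3.35 and 3.50 in the lines and 2.71 in BMMNCs, a difference of 0.72 (SE 0.12, adjusted p = 0.0178). The core proteins Uqcrc1 and Uqcrc2 differed by 0.20 and -0.06, neither past the threshold, and Uqcrq by -0.26.

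Complex IV, cytochrome c oxidase, held the most extreme members in both directions, and they were isoforms of the small nuclear subunits. Several of these subunits exist as a common form and as a form known from muscle, lung or testis. Of 11 common subunits 5 fell, none rose, and the median was -0.38. Of 7 tissue isoforms, 5 could be tested and 3 were measured on all arrays, of which Cox7a1 rose, Cox6a2 fell and Cox6b2 did not pass.

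Cox6a2, the heart and skeletal muscle form of subunit 6a on chromosome 7, lay at -3.51 in ES cells, -3.98 (line 7) and -3.92 (line 13) in iPS cells and 2.18 in BMMNCs. BMMNCs stood far above the other 3 arrays, and the iPS difference was -6.13 (SE 0.10, adjusted p = 0.000713), a signal 70.1-fold lower. It was the member with the largest difference of all, and lay between -6.35 and -5.22 under the other settings. Its common counterpart Cox6a1 lay at 7.45, 7.36, 7.43 and 7.78 in ES cells, line 7, line 13 and BMMNCs. The difference for Cox6a1, -0.39 (SE 0.10, adjusted p = 0.0448), turned to 0.09 with quantile normalization and did not pass there.

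Cox7a1, the muscle form of subunit 7a and also on chromosome 7, had levels of 2.62 in ES cells, 1.96 (line 7) and 2.25 (line 13) in iPS cells and -1.39 in BMMNCs. All 3 pluripotent arrays lay above BMMNCs, by 3.50 in the iPS mean (SE 0.18, adjusted p = 0.00178), an 11.3-fold higher signal. The common form Cox7a2 ran the other way, at 4.34, 4.41, 4.50 and 5.07 in ES cells, line 7, line 13 and BMMNCs, with a difference of -0.61 (SE 0.10, adjusted p = 0.0185). The related gene Cox7a2l fell by 0.59 (adjusted p = 0.0167). Both Cox7a1 and Cox6a2 are muscle isoforms, and they lay at opposite ends of the members.

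Of the isoforms known from testis, Cox7b2 and Cox8c were dim. Cox7b2 lay at -4.73 in ES cells and at -4.23 (line 7) and -4.25 (line 13) in iPS cells, and was not well above background in BMMNCs. Against the lowest measurable signal, the iPS lines were at least 1.61-fold higher than BMMNCs and ES cells at least 1.15-fold higher. The fitted difference was 2.68 (adjusted p = 0.0011) and became -0.06 with normexp background correction. Cox8c lay at -2.97 in ES cells and -5.12 in line 7 and was not well above background in line 13 or in BMMNCs. It was at least 3.9-fold higher in ES cells than in BMMNCs, and no fold can be given for the iPS lines; its fitted difference of 2.08 became -0.11 with normexp. Cox6b2, a testis form that was well measured everywhere, lay at 0.79, 1.06, 1.18 and 0.85 in ES cells, line 7, line 13 and BMMNCs and did not pass (0.27, adjusted p = 0.116).

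Bounds of this kind take the dim group at the higher of the lowest signal well above background on that array and the signal of the probe itself. The remaining common subunits of complex IV differed by less. Cox8a, the common form beside Cox8b and Cox8c, fell by 0.61 (adjusted p = 0.0152) and Cox5b by 0.50. Cox4i1, Cox6b1, Cox6c and Cox7b had differences of -0.38 to -0.28 that did not pass, and Cox5a and Cox7c had 0.04 and 0.10.

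**Figure D2:**
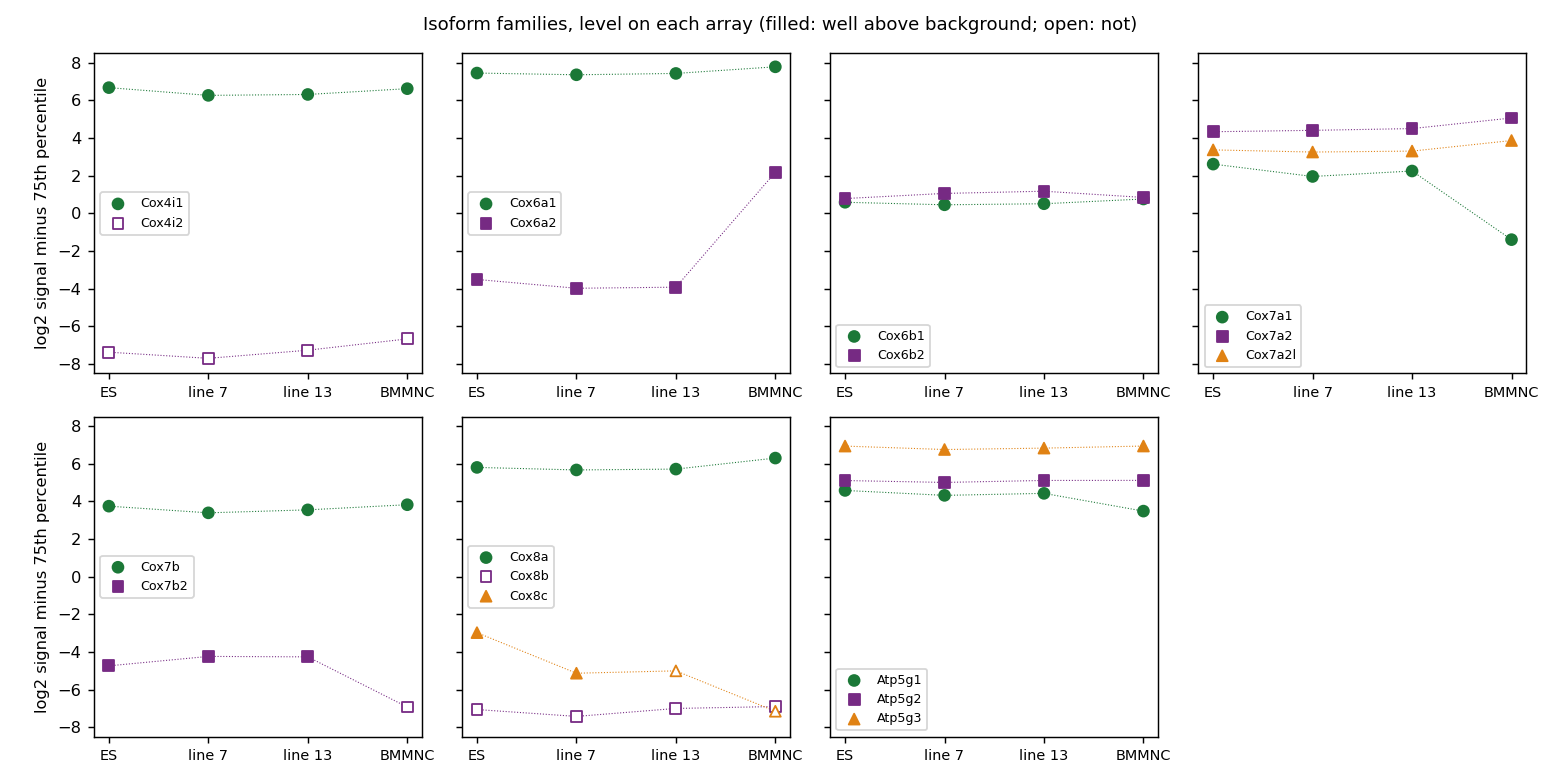
Level of each gene of 7 isoform families on the 4 arrays, as log2 signal minus the 75th percentile; filled symbols are well above background and open symbols are not, and the dotted lines join the arrays of a gene. Cox6a2 is at 2.18 in BMMNCs and near -4 elsewhere, Cox7a1 is at -1.39 in BMMNCs and between 1.96 and 2.62 elsewhere, and the common forms differ by less than 1 log2 unit between iPS lines and BMMNCs; heights of different probes are not comparable.

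In complex V, ATP synthase, 5 of 17 genes fell, 1 rose and 11 did not pass, with a median of -0.02. Its parts differed. Of the F1 subunits, the catalytic pair Atp5a1 and Atp5b had differences of 0.46 and 0.26, and Atp5c1 and Atp5d of the central stalk had 0.06 and 0.22, none past the threshold. These 4 moved with the scaling: 4 F1 genes rose with quantile normalization and 3 with normexp or with the authors' deposited table. They also depended on the probe. Other probes of Atp5b gave 0.74 and 0.92, and the mean of its probes gave 0.64, whereas the second probe of Atp5a1 gave 0.21. Atp5e, the epsilon subunit of the same stalk, lay at 5.37 in ES cells, 5.28 and 5.41 in the lines and 6.57 in BMMNCs. It was the one F1 gene to fall, by 1.22 (SE 0.11, adjusted p = 0.00508).

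Of the membrane part Fo, Atp5l (subunit g) lay at 3.99 in ES cells, 3.68 and 3.74 in the lines and 4.93 in BMMNCs, a difference of -1.22 (SE 0.10, adjusted p = 0.00377). Atp5h and Atp5pb of the peripheral stalk fell by 0.75 and 0.66, and Atp5mpl by 0.59. Their stalk partners Atp5o and Atp5j had 0.02 and 0.09, not past the threshold.

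The genes Atp5g1, Atp5g2 and Atp5g3 encode the same mature c subunit of the proton-driven ring. Atp5g1 lay at 4.58 in ES cells, 4.32 (line 7) and 4.43 (line 13) in iPS cells and 3.48 in BMMNCs, so that all 3 pluripotent arrays lay above BMMNCs. It rose by 0.89 (SE 0.11, adjusted p = 0.00879), and by 0.67 to 1.03 under the other settings. Atp5g3 lay at 6.94, 6.75, 6.83 and 6.94 in ES cells, line 7, line 13 and BMMNCs, and did not pass (-0.15). The brighter probe of Atp5g2 gave -0.06, and its second probe gave 0.49.

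Counts for the comparison with BMMNCs rest on 1 residual degree of freedom from the 2 lines, and the single ES and BMMNC arrays were assumed to vary as the lines do. With ES and iPS arrays taken as 1 group, 10 members rose and 21 fell, 36.5% in all, where 61.2% of all genes were called. Without the filter on dim probes, 4 rose and 11 fell, 17.2% in all, where 41.6% of all genes were called.

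Genes that work beside the respiratory chain were taken as lists for comparison. Of cytochrome c and cytochrome c1 genes, Cyc1, the cytochrome c1 subunit of complex III, rose by 0.70 (adjusted p = 0.0154), and somatic cytochrome c, Cycs, differed by 0.30 (adjusted p = 0.0808). Cyct, the testis form of cytochrome c, lay at 0.15 in ES cells and 2.67 and 2.84 in the lines, and was not well above background in BMMNCs. The iPS lines were at least 206-fold higher than BMMNCs. None of the 26 mitochondrially encoded subunits and RNAs listed was matched to a probe here, so the comparison covers nuclear genes.

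Assembly factors outside the Nduf family moved in both directions, with 13 of 28 higher, 9 lower and a median of 0.10. Over all genes tested, 38.0% rose and 37.8% fell. Ttc19, a complex III factor, was highest at 2.41, and Cox16, a complex IV factor, was lowest at -1.71. Of 14 TCA cycle enzymes, 6 rose and 1 fell, from Suclg2 at 1.30 to Dlst at -0.99, with a median of 0.09. Citrate synthase, Cs, differed by 0.05 and did not pass.

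Import and folding genes of mitochondria were mostly higher: 10 of 13 rose and 1 fell, with a median of 1.04, where 38.0% and 37.8% of all genes did. Tomm40, the import channel of the outer membrane, rose by 1.96, and the receptor Tomm22 fell by 0.76. Of 4 carriers and uncoupling proteins measured on all arrays, 3 rose, including the ADP/ATP carrier Slc25a4 by 1.72, and Ucp2, which is known to be high in blood cells, fell by 3.10. Of 16 regulators of mitochondrial biogenesis measured on all arrays, 7 rose and 5 fell. Of all genes measured on all arrays, 35.3% rose and 38.3% fell. Among the regulators Nrf1 rose by 0.47 (adjusted p = 0.026), Gabpa by 0.65 and Tfam by 0.46. Polrmt was the highest of those measured on all arrays at 0.79, and Esrra fell by 1.19 and Esrrg by 1.65. Ppargc1b, Gabpb1 and Polg2 also fell, with differences of -0.71, -0.36 and -0.35. Esrrb, also a pluripotency marker, was not well above background in BMMNCs. The medians of these lists differ from that of the respiratory chain genes (-0.23), and no test of that difference was made.

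**Figure D3:**
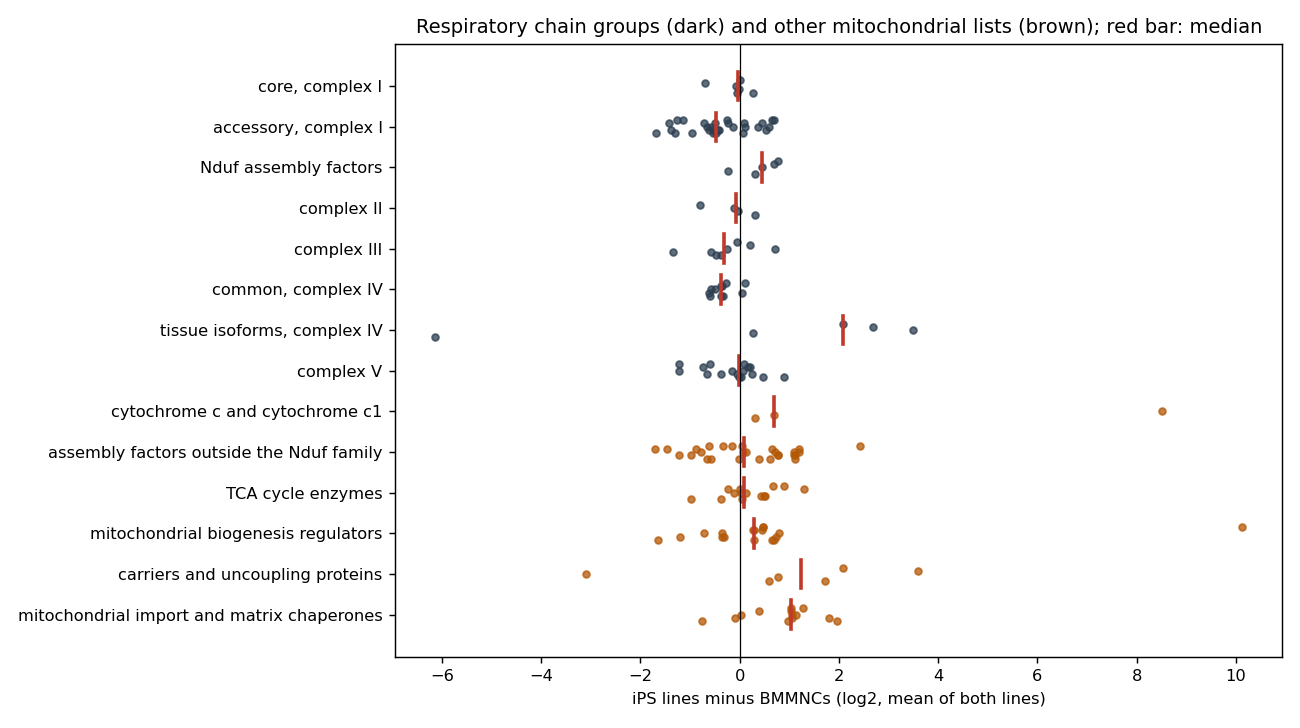
Log2 difference of the iPS lines from BMMNCs for every tested gene of the respiratory chain groups (dark) and of 6 other mitochondrial lists (brown), with a red bar at each median. The accessory subunits of complex I have a median of -0.47 and the import and chaperone genes one of 1.04. The bar of the complex IV tissue isoforms gives no size, since Cox7b2 and Cox8c were not well above background in BMMNCs.

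The comparison of the iPS lines with ES cells asks whether reprogrammed lines carry the same levels as ES cells. By limma, 2 of 85 members fell, Cox7c and Cox8c, and none rose, where 4.77% of all genes passed, 2.83% lower and 1.95% higher. At an unadjusted p under 0.05 there were 10 members (11.8%), where 31.3% of all genes were, so both shares of members lay under the background. A member that missed the threshold is not shown to be equal. The median difference was -0.11, beside -0.06 for all genes. Both lines lay under ES cells for 59 of 85 members (69.4%) and above for 12, where both lines lay under for 47.3% of all genes and above for 37.1%. Under the other scalings the share of members with both lines under ES cells ran from 41.2% to 63.5%, and that of all genes from 36.5% to 48.3%.

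Cox7c, a small complex IV subunit with no tissue isoform in these lists, lay at 3.80 in ES cells, 2.52 (line 7) and 2.64 (line 13) in iPS cells and 2.49 in BMMNCs. The lines and BMMNCs lay together and ES cells stood above them. Its iPS difference from ES cells was -1.22 (SE 0.11, adjusted p = 0.049), a 2.33-fold lower signal. Under the other settings the difference lay between -1.28 and -1.13, and the adjusted p rose to 0.184 without the filter on dim probes, so the call was lost in 4 of them.

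Cox8c lay at -2.97 in ES cells and at -5.12 and -5.00 in the lines, a difference of -2.09 (SE 0.11, adjusted p = 0.0425), and the value in line 13 was not well above background. With normexp background correction its difference was -1.11. The call was lost with the authors' deposited table and without the filter on dim probes.

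The other differences were small. Among members measured in ES cells and both lines, the highest were Cox7b2 at 0.49, Cox6b2 at 0.33, Ndufa3 at 0.30, Ndufs8 at 0.22 and Ndufaf7 at 0.18. After Cox7c, the lowest were Ndufb7 at -0.54, Cox7a1 at -0.51, Cox6a2 at -0.44 and Ndufb8 at -0.41. None of these 9 passed the threshold.

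Genes of chromosome 8 had a lower median in both lines than on the single ES array, which both differences share. The 601 genes of chromosome 8 measured in these cells had a median difference from ES cells of -0.40 in line 7 and -0.39 in line 13. For 10865 genes of other chromosomes it was -0.03 and -0.01. A shift in the lines and a shift in the ES cells cannot be told apart here. The members on chromosome 8 are Ndufb7, Cox4i1 and Ndufa13, with differences from ES cells of -0.54, -0.39 and -0.30, and whether they move with the rest of the chromosome was not tested. Cox4i1, the main form of the largest nuclear-encoded subunit of complex IV, lay at 6.68 in ES cells, 6.27 and 6.31 in the lines and 6.62 in BMMNCs. Without these 3 members the median of the rest against ES cells was -0.11, and the same 2 genes were called. Against BMMNCs the median of the rest was -0.14 instead of -0.23, with 13 higher and 32 lower.

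In the neighbouring lists, 3 calls were lower and 2 higher in the iPS lines than in ES cells. The lists held 3 (cytochromes), 28 (assembly factors), 14 (TCA cycle), 17 (regulators), 6 (carriers) and 13 (import) tested genes. Over all genes tested, 2.83% were called lower and 1.95% higher, and the lists were not tested against that share. Cyct was higher by 2.61 (adjusted p = 0.0425) and the complex I assembly factor Acad9 by 1.16 (adjusted p = 0.0464). Timmdc1, a further complex I assembly factor, was lower by 1.44, and Ucp1, the uncoupling protein of brown fat, passed as lower but was not well above background in line 13. The mitochondrial DNA polymerase gene Polg was also lower (adjusted p = 0.0462).

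**Figure D4:**
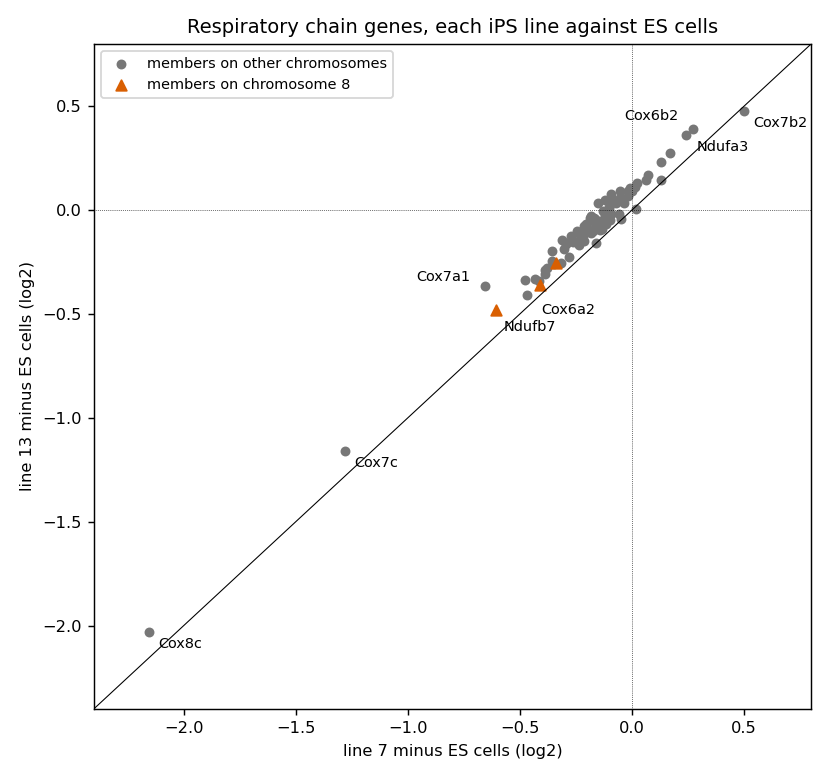
Difference from ES cells in log2 signal for each of the 85 tested members, line 7 on the horizontal and line 13 on the vertical axis; triangles are members on chromosome 8, and the line marks equal values. Cox8c and Cox7c lie far below 0 in both lines, and nearly all points lie above the line of equal values. Both axes share the single ES array.

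ES cells and BMMNCs had 1 array each, so their difference is a description. Of the 83 members measured on all arrays, 3 were at least 2-fold higher in ES cells and 9 at least 2-fold lower, where 22.6% and 23.1% of such genes were. The 3 were Cox7a1, Cox7c and Atp5g1, and the 9 were Cox6a2, Uqcrh, Ndufb3, Ndufb10, Ndufa3, Atp5e, Ndufb7, Ndufa2 and Ndufa1. Cox6a2 was 5.69 lower and Cox7a1 4.01 higher in ES cells, against -6.13 and 3.50 in the iPS lines. The BMMNC array is the same in both contrasts. The median over members was -0.04, beside 0.06 for all genes, and ran from -0.35 to 0.05 under the other scalings.

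The iPS lines differed little from each other. No member was 2-fold apart, where 2.44% of all genes were and 0.202% of those measured on all arrays, so the count of members is near the background. The difference of line 13 from line 7 lay between -0.02 and 0.29, with Cox7a1 the highest, and its median was 0.10 against 0.03 for all genes. The level in line 13 was the higher one for 83 of 85 members (97.6%), while 57.2% of all genes were higher there. Other scalings gave 88.2% to 97.6% for the members and 50.2% to 57.3% for all genes. Each line is a single array, and the SD that limma took as its prior for a single array was 0.0933.

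The counts across settings are shown next. In the comparison with BMMNCs the members that fell outnumbered those that rose in each of the 10 settings. The median of all genes ran from -0.31 to 0.12 over these, and from 41.6% to 84.5% of all genes were called. Whether the balance of members follows that of all genes was not tested. In the comparison with ES cells the number of members called ran from 0 to 23, and the share of all genes from 0% to 38.9%.

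**Figure D5:**
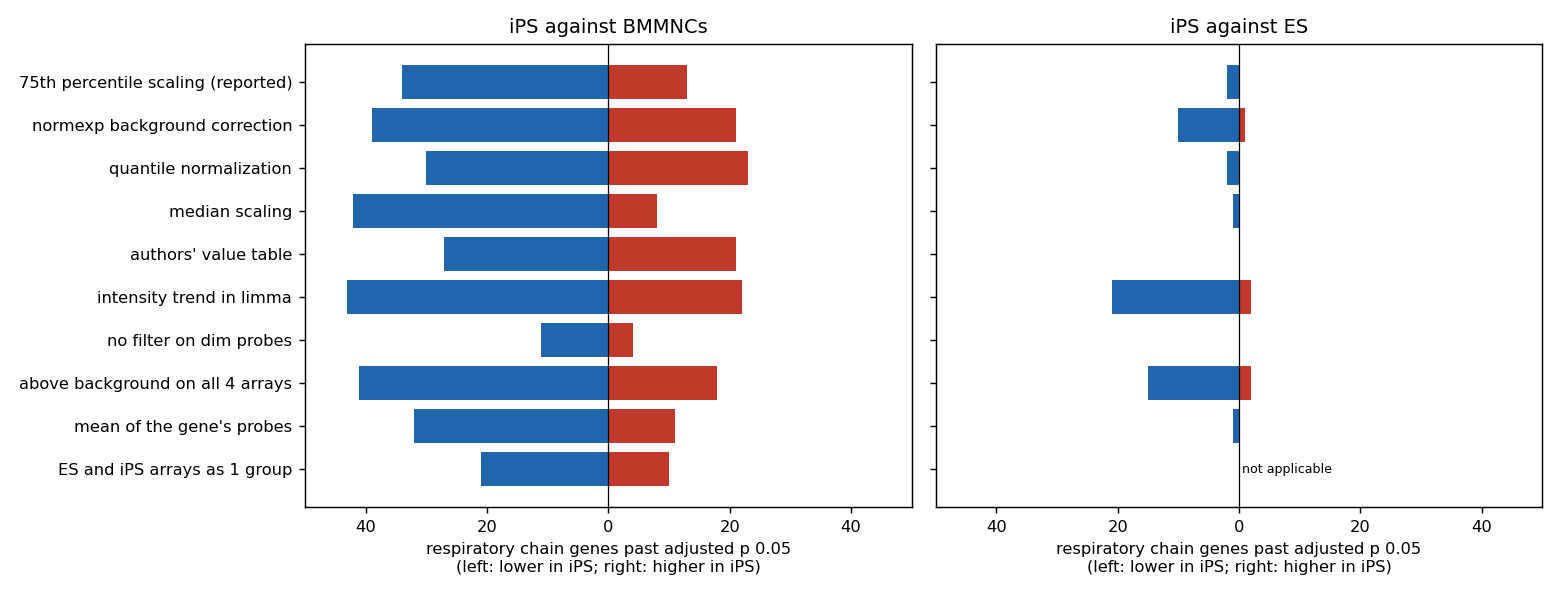
Number of members past adjusted p 0.05 under each processing setting, lower in iPS lines to the left in blue and higher to the right in red, against BMMNCs (left) and against ES cells (right). Against BMMNCs the counts run from 11 to 43 lower and 4 to 23 higher; against ES cells they run from 0 to 21 lower and 0 to 2 higher.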

How the data were processed

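Total RNA carrying the Cy3 dye was measured on Agilent mouse arrays in 1 colour, per the labels, and images were quantified with Agilent Feature Extraction 9.5, per the submitters' processing notes. The file headers show 1 slide and 1 scan time for the 4 arrays. The deposited values are intensities: a background-subtracted processed signal per spot. The authors' deposited value table was found to be that signal divided by 1 factor per array, linear and not centred by gene, with medians of 139.9 (ES), 135.9 (line 7), 133.6 (line 13) and 106.2 (BMMNCs). Which rule gave the factors is unknown.

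After removal of control spots and of 14 probes with outlier flags, repeated spots were averaged. Levels are log2 of the deposited intensity minus the 75th percentile of the array. Well above background means that the scanner's mark was set on a share of 0.5 or more of a probe's spots. Accessions, without versions, named 22948 of 41160 probes through RefSeq's table for GRCm38.p6. A gene took its probe with the highest mean signal, and those above background on 1 array or more, 21216 genes or transcripts, entered the tests.

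The model was fitted with limma 3.58.1 (R 4.3.3) and gave each of the ES, iPS and BMMNC groups its own mean. Its 1 residual degree of freedom comes from the 2 lines, and the prior had 1.8 degrees of freedom. P-values were adjusted by Benjamini-Hochberg at 0.05. On simulated data in which few genes changed, the fit returned the sizes of the changes and called most of the large ones, but none of the smaller ones. Since the adjustment runs over all genes, the call of a member depends on how many other genes change. Single arrays were compared by value alone. The values of 1 gene are not reported here, though counts and medians include it. The number of arrays limits the precision.

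Named genes were, per complex, the 3 highest and 3 lowest differences from BMMNCs among members measured on all arrays. To these were added the 5 highest and lowest against ES cells, every member called there, all isoform family members, members with probes of opposite sign, and per list its highest and lowest gene. Others were named after their values were seen. The members and lists were chosen with earlier results of these data known. The normexp alternative used the median spot signal, since the files read here hold no mean spot signal. Other alternatives changed the normalization, the filter on dim probes, the probe rule, the variance model and the grouping, and left out each line or the members on chromosome 8.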

Additional observations from a re-analysis of the deposited data

How the results depend on the processing

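Depth is set here by signal over background and by 1 residual degree of freedom, so small differences and dim isoforms are the least certain. Against BMMNCs, 47 members were called. Of these, 13 kept their direction and their side of the threshold in every setting and 44 kept their sign. The number called was 15 (17.2%) without the filter on dim probes and 31 (36.5%) with ES and iPS arrays as 1 group. Of all genes, 41.6% and 61.2% were called there, beside 75.8% in the reported setting. The number higher (13) was 21 with normexp background correction, 23 with quantile normalization, 8 with median scaling, 21 with the authors' value table, 22 with an intensity trend in limma and 4 without the filter. In either direction, 82.5%, 77.8%, 76.7%, 75.8%, 83.1% and 41.6% of all genes were called in these settings, in that order. The number lower (34) was 11 without the filter and 21 with ES and iPS as 1 group. The members' median (-0.23) was -0.11 with normexp, -0.0094 with quantile normalization, -0.44 with median scaling, -0.10 with the authors' value table and -0.12 with ES and iPS as 1 group. It was -0.15 without line 7, -0.28 without line 13 and -0.14 without the members on chromosome 8, an alternative chosen after seeing the data. Normexp moved the median of all genes to -0.20, and leaving out the filter moved it to -0.31, both under the members' median there. Cox6a1 turned to 0.0885 with quantile normalization, and Cox7b2 and Cox8c turned to -0.0575 and -0.11 with normexp.

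Against ES cells the 2 calls became 11 with normexp (1 higher, 10 lower), 1 with median scaling (lower), 23 with the trend (2 higher, 21 lower), 17 over genes above background on all arrays (2 higher, 15 lower) and 1 with the mean of a gene's probes (lower). Of all genes, 27.0%, 4.40%, 36.3%, 38.9% and 3.02% were called in these settings, more than of the members in each. By limma 0 members and 0 of all genes were called with the authors' value table and without the filter, where 11 (12.9%) and 2 (2.30%) members and 31.3% and 14.1% of all genes had an unadjusted p under 0.05. The median (-0.11) was -0.0178 with median scaling, -0.06 without line 7 and -0.16 without line 13. Without the filter more genes were tested, and above background on all arrays fewer were. The prior changed there too, with an SD of 0.158 and 0.0859 beside 0.0933 in the reported setting. Its degrees of freedom were 1.85 and 14, beside 1.8. The cause of these and of the other changes in the counts was not tested. Leaving out a line leaves no residual degree of freedom, so only values were recomputed there. No paired analysis was possible because the labels give no replicate number that groups share.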
